A study of Mus musculus with 12 samples.

Results

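Mitochondrial biogenesis, the making of new mitochondrial mass, is directed from the nucleus by a small set of regulators, and 10 of their genes were followed here among the 24453 genes of the count table. They were listed by name for their roles: the PGC-1 coactivators *Ppargc1a*, *Ppargc1b* and *Pprc1*, the transcription factor genes *Nrf1*, *Gabpa* and *Gabpb1*, the nuclear receptor gene *Esrra*, the AMPK catalytic subunit genes *Prkaa1* and *Prkaa2*, and the deacetylase gene *Sirt1*. Coactivators of the PGC-1 family do not bind DNA themselves. They are brought to promoters by factors such as NRF-1, GABP (also called NRF-2) and ERRα, which act on nuclear genes for respiratory chain subunits and for the machinery that copies and transcribes mtDNA. AMPK, a kinase that senses low cellular energy, and SIRT1, an NAD-dependent deacetylase, both modify PGC-1α after translation, so RNA levels describe only part of this control.

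The study asked what loss of PNPase, a mitochondrial exoribonuclease encoded by *Pnpt1*, does to gene expression in mouse embryonic fibroblasts (MEFs). RNA was sequenced from 4 lines with 3 replicate cultures each, 12 libraries in all. Estimated counts per library ran from 47164860 to 67991378, with medians of 60589501 for TM6, 49539847 for rho0, 54007045 for clone PKO-1 and 56466883 for clone PKO-6. TM6, the parental line, is homozygous for a floxed *Pnpt1* allele, is of C57BL/6J strain and was immortalized with SV40 large T antigen. The rho0 line, which lacks mtDNA, was derived from TM6 with 750 ng/mL of the DNA-binding drug ditercalinium over 3 weeks, and then grown from 1 cell. PKO-1 and PKO-6 are clones that each arose from 1 TM6 cell after an adenovirus had delivered Cre, which removes exon 2 of *Pnpt1*. Every line carried the floxed background and the large T antigen and was grown with 50 µg/mL uridine. With 1 rho0 line and 1 culture series per clone, p-values measure the spread between cultures of a line, and a difference between lines cannot be told apart from one that any single cell clone would show.

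*Pnpt1* (chromosome 11, 29130751 to 29161828 of GRCm38) was read first, because it checks the labels. Its normalized counts, which are counts scaled to a common library size, were 2832, 3242 and 3319 in TM6, 5051, 5251 and 5510 in the rho0 line, 1254, 1191 and 1276 in clone PKO-1 and 1897, 1720 and 2214 in clone PKO-6. All 6 PKO libraries were below all TM6 and rho0 libraries, and the rho0 libraries were above all others. On the log2 scale PKO-1 differed from TM6 by -1.34 (standard error, SE, 0.0863, edgeR adjusted p = 1.25e-08), PKO-6 by -0.69 (SE 0.084, edgeR adjusted p = 5.53e-06), and rho0 by 0.75 (SE 0.0828, edgeR adjusted p = 2.09e-06). Counts cover the whole gene, so a transcript without exon 2 is still counted.

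The fibroblast label was checked against 10 markers. Their summed level was 548252 to 596524 normalized counts in TM6, 453121 to 505949 in the rho0 line, 610711 to 660833 in clone PKO-1 and 355731 to 396653 in clone PKO-6. *Fn1*, the marker with the most counts in the 3 derived lines, made up much of this sum, which is not corrected for transcript length, with means of 113270 in TM6, 237872 in the rho0 line, 259106 in clone PKO-1 and 208419 in clone PKO-6. Other markers were far lower in some derived lines. *Col1a1*, the one with the most counts in TM6, had means of 182206, 61619, 98095 and 38369 in the same order of lines, and *Fbn1* had 10318, 1191, 2348 and 138.4. *Pdgfrb* had 6986, 2530, 3001 and 1542, while *Col3a1*, with 4765, 475.9, 7011 and 329.2, and *Pdgfra*, with 341.8, 81.6, 3225 and 414.6, were highest in PKO-1. *Thy1* was at or near 0 in all lines, with 2.82 ± 2.55 normalized counts in TM6 and 0 in every PKO-6 library (SD over n = 3 libraries). Lists of other cell types were low but did not all stay level. The 5 adipocyte markers summed to means of 68.0, 1.86, 12.3 and 20.7 normalized counts in the same order, mostly from *Fabp4*, with *Plin1* and *Cidea* at 0 in every library. The skeletal muscle list summed to 25.3, 18.4, 45.0 and 18.6, nearly all from *Actn3*, with *Myog* at 0 in every library. The endothelial list summed to 57.0, 15.3, 35.3 and 150.9, with *Kdr* at 141.7 ± 11.7 in PKO-6, and the leukocyte list to 91.9, 123.6, 96.7 and 186.5, nearly all from *Cd68*, with *Adgre1* at 0 in every library. The neuron list summed to 15.8, 12.4, 8.03 and 15.3, mostly from *Syp*. The epithelial marker *Epcam* was at 88.0 ± 14.7 in PKO-6 against 1.46 to 8.15 on average in the other lines. The summed epithelial list had means of 264.5 normalized counts in TM6, 446 in the rho0 line, 825 in clone PKO-1 and 117.6 in clone PKO-6, most of it from *Krt18* in all lines but PKO-6. The part of these markers in the results below was not tested.

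Levels of different regulators were compared per length, as TPM, an abundance corrected for transcript length and library depth. In TM6, *Pprc1* stood highest among the regulators at 54.1 ± 3.72 TPM, followed by *Gabpa* at 43.9 ± 5.19 and *Prkaa1* at 36.1 ± 3.16 (SD over n = 3 libraries). *Nrf1*, *Gabpb1* and *Sirt1* were at 29.8, 23.8 and 23.8 TPM on average, and *Esrra* at 9.68. *Prkaa2* at 1.73 TPM, *Ppargc1b* at 0.953 and *Ppargc1a* at 0.0567 were the lowest. The span from *Ppargc1a* to *Pprc1* was thus far wider than any difference between lines for a single gene.

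Differences between lines were tested by the quasi-likelihood method of edgeR, fitted to all genes. A gene was called at a Benjamini-Hochberg adjusted p below 0.01 with an absolute log2 fold change above 0.5, the thresholds of the study. The study applied them to moderated fold changes from DESeq2. The edgeR fold changes here were not moderated in that way, so counts of called genes are not comparable with the study's. All 10 regulators were among the 14026 genes tested, but *Ppargc1a* entered through the PKO lines, since its counts reached the filter's cutoff in 1 of 3 TM6 libraries, 0 of 3 rho0 libraries and all 6 PKO libraries. Counts of called regulators therefore include a gene that had to be high somewhere to be tested.

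Against TM6, 3 of the 10 were called in rho0 (*Ppargc1b*, *Pprc1* and *Prkaa2*), where 42.1% of all tested genes were called. In PKO-1 the count was 3 (*Ppargc1a*, *Ppargc1b* and *Gabpa*), with 34.3% of all genes called, and in PKO-6 it was 4 (*Ppargc1a*, *Ppargc1b*, *Esrra* and *Prkaa2*), with 41.3% called. All of these calls were in the higher direction, and the 3 comparisons share the TM6 libraries. The direction of the *Ppargc1a* calls is no separate result, since the gene was tested only because its counts were high enough in the PKO lines. Among all genes the calls were divided, with 2899 higher and 3003 lower in rho0, 2294 and 2516 in PKO-1, and 3077 and 2722 in PKO-6. The median log2 fold change of the 10 regulators was 0.07 in rho0, 0.20 in clone PKO-1 and 0.07 in clone PKO-6, beside 0.02, 0.00 and 0.01 over all genes. The counts of called regulators were near the share of all genes, so they are read gene by gene below.

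The clones were also compared with each other and with rho0. Between PKO-1 and PKO-6, 5 regulators were called, with 29.1% of all genes called: 4 were lower in PKO-1 (*Ppargc1a*, *Ppargc1b*, *Esrra* and *Prkaa2*) and *Gabpa* was higher. PKO-1 differed from rho0 in 4 regulators, with 32.7% of all genes called, and PKO-6 differed from rho0 in 4, with 21.5% called. In a fit with both clones pooled as 1 group, 2 regulators were called against TM6 (*Ppargc1a* and *Ppargc1b*), with 25.7% of all genes called. The pooled group differed from rho0 in 2 regulators (*Ppargc1a* higher and *Pprc1* lower), with 10.7% of all genes called. The pooled *Ppargc1a* call against TM6 (2.41) was lost without TM6 replicate 1 (2.18), 2 (2.88) or 3 (2.24) and without PKO-6 replicate 1 (2.27), 2 (2.24) or 3 (2.21), and that of *Ppargc1b* (1.47) without TM6 replicate 2 (1.34). Against rho0 the pooled *Ppargc1a* call (3.13) was lost without rho0 replicate 1 (3.14), 2 (3.15) or 3 (3.05). A replicate block in the fit also ended both calls, at 2.45 against TM6 and 3.12 against rho0. *Prkaa2*, not called against TM6 with all libraries (0.87), was called without PKO-1 replicate 1, 2 or 3 (0.95 to 0.96). With all libraries it was called by the Wald test of DESeq2 (0.85), and when the mean of both clones was taken in the fit of 4 lines (0.80). In the pooled edgeR fit the difference between the clones counts as spread.

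**Figure D1:**
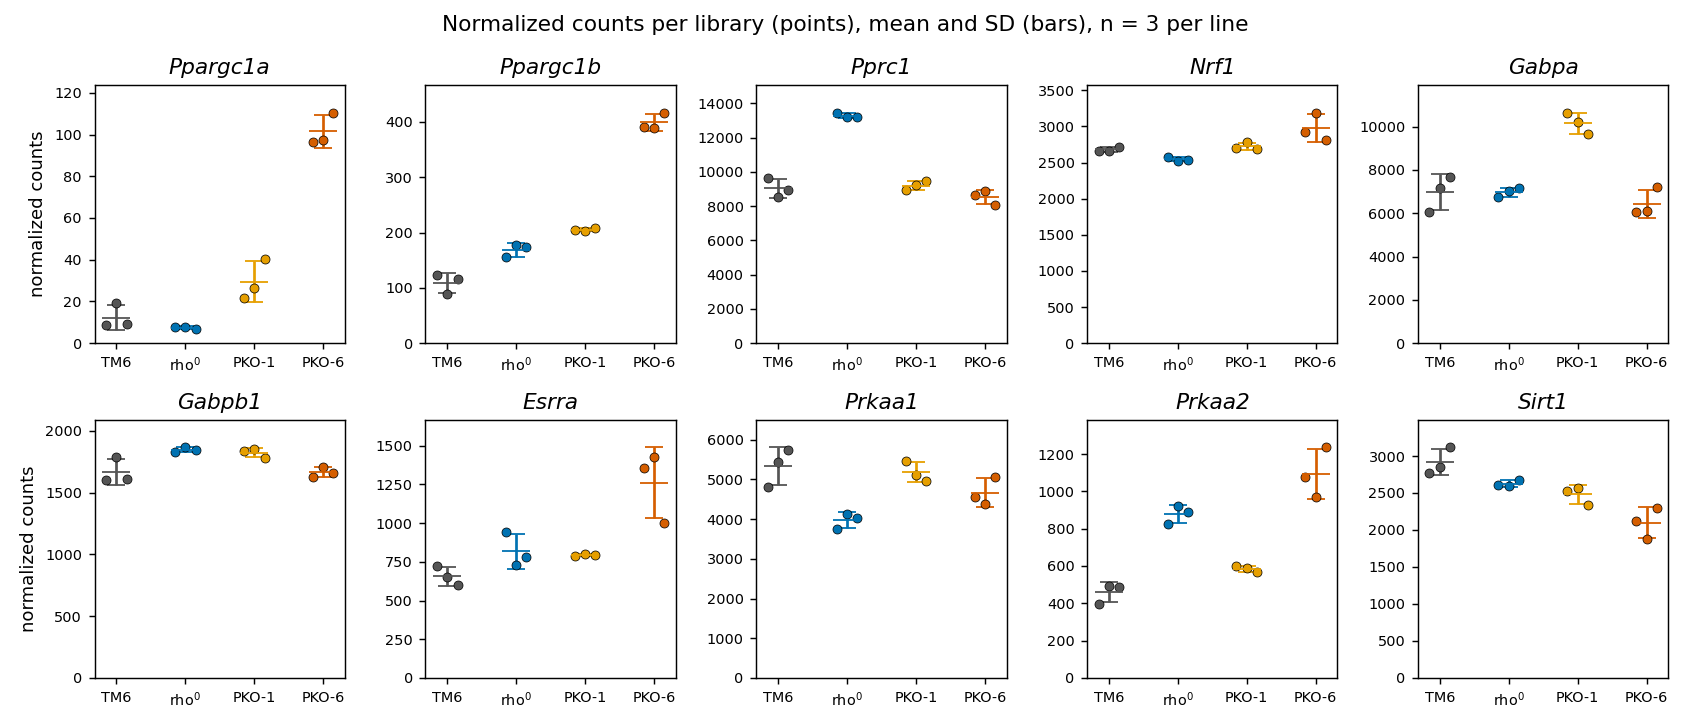
Normalized counts of the 10 regulators in each of the 12 libraries, with 1 panel per gene and a vertical axis that starts at 0. Points are libraries and bars are the mean and SD of 3 replicates; *Ppargc1a* ranges from 6.70 in a rho0 library to 110.5 in a PKO-6 library, while *Pprc1* is highest in the 3 rho0 libraries.

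*Ppargc1a* (chromosome 5, 51454249 to 51567725, minus strand) encodes PGC-1α, the coactivator that responds most to cold, exercise and fasting in muscle and brown fat. Before scaling, its counts were 10, 20 and 9 in TM6, 8, 7 and 6 in the rho0 line, 18, 25 and 39 in clone PKO-1 and 118, 94 and 114 in clone PKO-6. The PKO-6 libraries were well above all others, the PKO-1 libraries, at 21.4, 26.6 and 40.3 normalized counts once scaled, lay above the highest TM6 library at 19.1, and rho0 was below every TM6 library. Since these are bulk RNA samples, more cells that express a gene and more RNA per cell cannot be told apart. The log2 fold change against TM6 was 3.04 in PKO-6 (SE 0.29, edgeR adjusted p = 4.03e-07) and 1.27 in PKO-1 (SE 0.32, edgeR adjusted p = 0.00321). In rho0 it was -0.71 and not called (SE 0.40, edgeR adjusted p = 0.128, 95% interval -1.57 to 0.16), and no difference was detectable at so few counts. The PKO-1 call was lost without TM6 replicate 1 (1.03), without TM6 replicate 3 (1.11) and without PKO-1 replicate 3 (0.98), and when TM6 and PKO-1 alone were fitted (1.25). At a mean of 0.473 ± 0.0666 TPM in PKO-6 (SD over n = 3 libraries), the gene was the lowest of the 10 there, as it was in the other 3 lines. Its 3 listed transcripts could not be separated at this depth, as the estimated share of one of them moved between 0% and 100% among libraries of TM6 and of rho0.

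*Ppargc1b*, on chromosome 18 (61298136 to 61400431, minus strand), encodes PGC-1β, a coactivator with more constant expression that also acts with ERRα. Its normalized counts were 122.8, 88.9 and 115.7 in TM6, 155.0, 177.3 and 173.1 in the rho0 line, 204.8, 202.4 and 207.9 in clone PKO-1 and 391.4, 389.7 and 416.9 in clone PKO-6. The lines stood in this order with no overlap between any 2 of them. Against TM6 the log2 fold change was 0.62 in rho0 (SE 0.12, edgeR adjusted p = 3.84e-04), 0.91 in PKO-1 (SE 0.12, edgeR adjusted p = 1.5e-05) and 1.87 in PKO-6 (SE 0.12, edgeR adjusted p = 5.56e-09). PKO-1 and rho0, neighbours in the order, differed by 0.28 and were not called (SE 0.12, edgeR adjusted p = 0.0454). Genes of chromosome 18 were higher than in TM6 in these lines, with median log2 fold changes of 0.42 in rho0, 0.42 in clone PKO-1 and 0.34 in clone PKO-6. Relative to those medians *Ppargc1b* differed by 0.20, 0.49 and 1.53, so that only the PKO-6 difference passed the fold threshold, and the part of the chromosome in the result was not tested. The rho0 call was also lost without TM6 replicate 2, at 0.49.

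*Pprc1* (chromosome 19, 46056539 to 46072909, plus strand) encodes PRC, the family member that is induced by serum and linked to growth. Normalized counts were 9639, 8545 and 8948 in TM6, 13467, 13189 and 13195 in the rho0 line, 8926, 9212 and 9480 in clone PKO-1 and 8652, 8912 and 8087 in clone PKO-6. Only rho0 stood apart, above all 9 other libraries, while TM6 overlapped with both clones. The log2 fold change of rho0 against TM6 was 0.56 (SE 0.056, edgeR adjusted p = 8.6e-07). Against rho0, *Pprc1* had log2 fold changes of -0.53 in PKO-1 (SE 0.056, edgeR adjusted p = 2.13e-06) and -0.64 in PKO-6 (SE 0.056, edgeR adjusted p = 5.99e-07), both called lower. Relative to the median of chromosome 19 the rho0 difference from TM6 was 0.49, just under the fold threshold. The gene overlaps *Gm38437*, *Mir3084-1* and *Snora19* on the other strand, and whether counting used strand is not given in the sources used here.

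Taken per length, *Pprc1* supplied most of the RNA of the PGC-1 family in every line. Its share of the family's summed TPM was 98.1% to 98.3% over the TM6 libraries, 98.0% to 98.3% over those of rho0, 96.6% to 96.7% over those of PKO-1 and 92.1% to 93.2% over those of PKO-6. The share of *Ppargc1b* was on average 1.72% in TM6 and 6.33% in PKO-6, and that of *Ppargc1a* was 0.105% and 0.891%. The family thus moved toward *Ppargc1b* and *Ppargc1a* in both clones, more so in PKO-6, but both genes remained minor parts of it.

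*Nrf1* (chromosome 6, 30047988 to 30153458, plus strand) encodes NRF-1, which binds promoters of respiratory chain and mtDNA transcription genes. Its normalized counts were 2661 to 2717 in TM6, 2522 to 2581 in the rho0 line, 2686 to 2784 in clone PKO-1 and 2818 to 3191 in clone PKO-6. It was called in no comparison, and its log2 fold changes against TM6 were -0.07 in rho0, 0.02 in clone PKO-1 and 0.15 in clone PKO-6. The largest of these, in PKO-6, had a 95% interval of 0.05 to 0.26, which lies within the fold threshold (edgeR adjusted p = 0.0143). Of its 6 listed transcripts, the one that ends at 30145197 and has 12 exons held 44.4% ± 3.14 of the gene's transcripts in TM6, 41.5% ± 5.34 in the rho0 line, 37.2% ± 0.693 in clone PKO-1 and 49.9% ± 1.95 in clone PKO-6 (SD over n = 3 libraries). Of the pair that ends at 30153458, the one of 3587 bases held 11.6% ± 3.84, 22.2% ± 5.32, 22.2% ± 4.79 and 3.83% ± 0.898 in the same order, and the one of 3584 bases held 35.7% ± 2.78, 24.3% ± 4.56, 32.1% ± 4.26 and 40.4% ± 3.22. The 3587-base transcript was thus lowest in PKO-6, with no overlap with the other lines. These shares are RSEM estimates, those of the pair for transcripts of nearly the same length, and they were not tested.

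*Gabpa* (chromosome 16, 84835124 to 84863778, plus strand) encodes the DNA-binding ETS subunit of GABP. Normalized counts were 6057, 7168 and 7694 in TM6, 6739, 7015 and 7153 in the rho0 line, 10622, 10206 and 9660 in clone PKO-1 and 6060, 6082 and 7190 in clone PKO-6. PKO-1 was above every other library, and the other 3 lines overlapped. The log2 fold change of PKO-1 was 0.54 against TM6 (SE 0.0859, edgeR adjusted p = 7.88e-05), 0.54 against rho0 (SE 0.086, edgeR adjusted p = 9.04e-05) and 0.66 against PKO-6 (SE 0.0861, edgeR adjusted p = 1.64e-05). Without TM6 replicate 1 the difference from TM6 was 0.42 and not called. With the median of chromosome 16 subtracted it was 0.37, and the differences from rho0 and PKO-6 were 0.44 and 0.46, all under the fold threshold. *Gabpa* overlaps *Atp5j*, the gene of an ATP synthase subunit, on the opposite strand, so reads may have been divided between them. *Atp5j* had 7640 ± 403 normalized counts in PKO-1 against 5892 ± 208 in TM6, 5238 ± 625 in rho0 and 6248 ± 513 in PKO-6 (SD over n = 3 libraries). It was called higher in PKO-1 than in rho0 (log2 fold change 0.54, SE 0.0818, edgeR adjusted p = 5.83e-05), but not against TM6, at 0.37 (SE 0.0815, edgeR adjusted p = 0.00112), nor against PKO-6, at 0.29 (SE 0.0814, edgeR adjusted p = 0.00701). With the median of chromosome 16 subtracted, the *Atp5j* difference between PKO-1 and rho0 was 0.44, under the fold threshold. The part of *Atp5j* in the *Gabpa* counts was not tested.

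*Gabpb1* (chromosome 2, 126628907 to 126676337, minus strand) encodes the GABP subunit that carries the activation domain. Its normalized counts ran from 1602 to 1785 in TM6, 1831 to 1867 in the rho0 line, 1784 to 1854 in clone PKO-1 and 1627 to 1706 in clone PKO-6, and no comparison was called. The log2 fold changes against TM6 were 0.15 in rho0, 0.13 in clone PKO-1 and -0.00 in clone PKO-6. Its transcripts, however, were divided differently in TM6. The 4 listed transcripts that end at 126628907, the distal 3′ end, held 60.7%, 65.5% and 62.3% of the gene's transcripts in TM6, 78.0%, 75.9% and 74.2% in the rho0 line, 79.7%, 79.0% and 79.5% in clone PKO-1 and 75.8%, 77.7% and 83.8% in clone PKO-6. The 3 that end at 126639019 held 35.3%, 31.7% and 34.6% in TM6, and 12.5% to 21.0% in the 9 libraries of the other lines. TM6 did not overlap with any other line in either share. These are estimates that RSEM made from reads shared between transcripts, and the shares were not tested.

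*Esrra* (chromosome 19, 6910977 to 6921808, minus strand) encodes ERRα, an orphan nuclear receptor that recruits PGC-1α and PGC-1β. Normalized counts were 722.8, 651.5 and 600.3 in TM6, 941.5, 729.1 and 780.5 in the rho0 line, 785.7, 798.8 and 796.3 in clone PKO-1 and 1355, 1426 and 997.7 in clone PKO-6. PKO-6 was above all other libraries, though its replicate 3 was close to the highest rho0 library, and rho0 and PKO-1 overlapped. PKO-6 had a log2 fold change of 0.94 against TM6 (SE 0.13, edgeR adjusted p = 1.51e-05) and 0.62 against rho0 (SE 0.13, edgeR adjusted p = 9.5e-04). Against TM6 it was 0.31 in rho0 and 0.27 in PKO-1, neither called (edgeR adjusted p = 0.0416 and 0.0817). *Esrra* overlaps *Trmt112* on the opposite strand, which had 3345 ± 466 normalized counts in PKO-6 and 3292 ± 115 in TM6 (SD over n = 3 libraries) and was called in no comparison.

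*Prkaa1* (chromosome 15, 5143861 to 5181899, plus strand) encodes AMPK α1, the catalytic subunit found in most tissues. Its normalized counts were 4819, 5433 and 5754 in TM6, 3751, 4130 and 4041 in the rho0 line, 5460, 5121 and 4973 in clone PKO-1 and 4557, 4382 and 5069 in clone PKO-6. The rho0 libraries were the lowest, with no overlap with any other line, and TM6 overlapped with both clones. The log2 fold change of rho0 against TM6 was -0.42, short of the fold threshold despite a small p (SE 0.0736, edgeR adjusted p = 1.48e-04). The median of all chromosome 15 genes was -0.38 in the same comparison, and its part in the result was not tested. Without TM6 replicate 1 the change was -0.51 and called.

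*Prkaa2* (chromosome 4, 105029650 to 105109898, minus strand) encodes AMPK α2, the catalytic subunit typical of muscle. Normalized counts were 396.9, 492.0 and 488.6 in TM6, 827.2, 920.8 and 887.7 in the rho0 line, 600.0, 587.9 and 565.7 in clone PKO-1 and 1076, 970.0 and 1236 in clone PKO-6. Again the lines did not overlap, with TM6 lowest, then PKO-1, then rho0, and PKO-6 highest. The log2 fold change against TM6 was 0.94 in rho0 (SE 0.10, edgeR adjusted p = 1.85e-06) and 1.25 in PKO-6 (SE 0.10, edgeR adjusted p = 8.31e-08). In PKO-1 it was 0.35, below the fold threshold (SE 0.10, edgeR adjusted p = 0.00884). PKO-1 was called lower than rho0, at -0.59 (SE 0.10, edgeR adjusted p = 1.9e-04), while PKO-6 and rho0 differed by 0.32 and were not called (SE 0.0988, edgeR adjusted p = 0.0152). Relative to the median of chromosome 4 the difference between PKO-1 and rho0 was -0.37, under the fold threshold.

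Per length, *Prkaa2* remained the minor catalytic subunit. It supplied 4.40%, 4.81% and 4.52% of the summed TPM of both genes in TM6, 5.76%, 6.02% and 5.98% in PKO-1, 11.0%, 11.0% and 10.9% in rho0, and 11.6%, 11.0% and 12.0% in PKO-6. The share was higher in rho0 and PKO-6 than in any library of TM6 or PKO-1, with higher *Prkaa2* in both and, in rho0, the lower *Prkaa1* counts given above.

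*Sirt1* (chromosome 10, 63319005 to 63339035, minus strand) encodes the deacetylase that acts on PGC-1α. Its normalized counts were 2777, 2857 and 3117 in TM6, 2605, 2594 and 2677 in the rho0 line, 2533, 2569 and 2338 in clone PKO-1 and 2115, 1877 and 2295 in clone PKO-6. All 9 libraries of the derived lines lay below the lowest TM6 library, and PKO-6 lay below all others. No comparison was called, although PKO-6 against TM6 came near, at a log2 fold change of -0.48 (SE 0.0703, edgeR adjusted p = 3.36e-05). The call depended on small shifts around the fold threshold: it was made without TM6 replicate 1 (-0.55), PKO-6 replicate 1 (-0.51) or PKO-6 replicate 3 (-0.55), and with *Rn45s* left out (-0.51) or TM6 and PKO-6 fitted alone (-0.51). PKO-6 against rho0, at -0.32, was not called. With the median of chromosome 10 subtracted it was -0.51, past the fold threshold. The adjusted p stayed that of the unsubtracted difference (edgeR adjusted p = 0.00163).

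**Figure D2:**
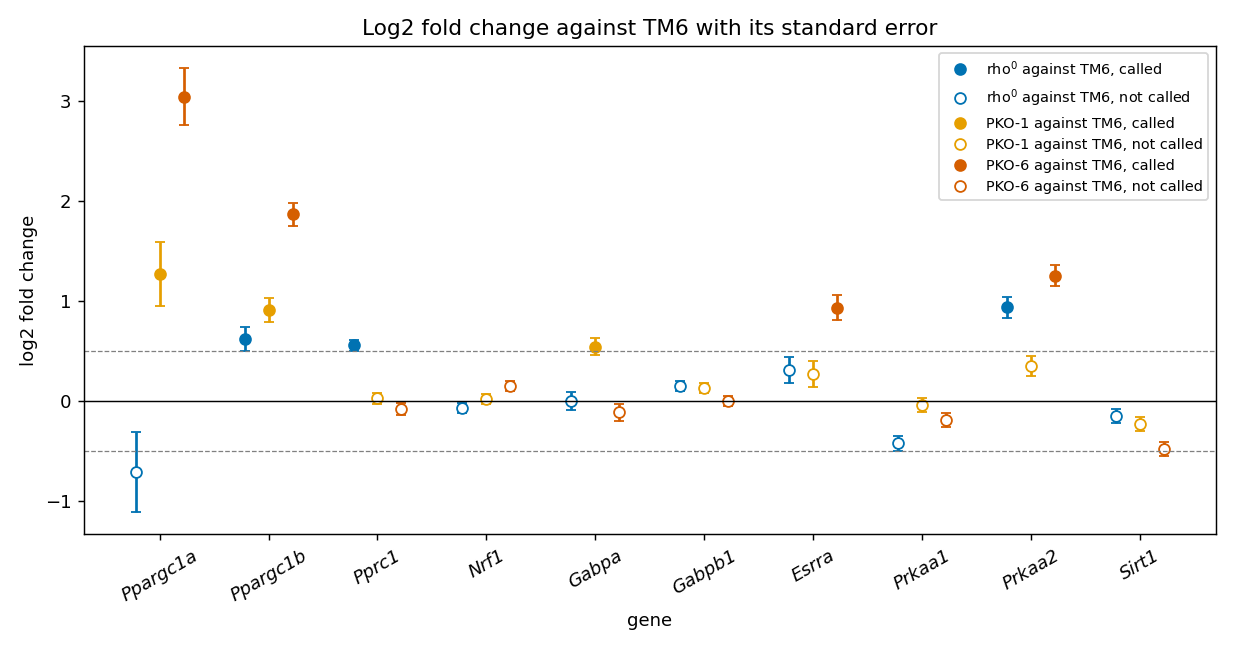
Log2 fold change of each regulator against TM6 in the rho0 line and in clones PKO-1 and PKO-6, from edgeR over 3 libraries per line. Filled points were called, open points were not, error bars are standard errors and dashed lines mark the fold threshold of 0.5. The called points are all above 0, and the highest is *Ppargc1a* in PKO-6 at 3.04, a gene tested only through its PKO counts.

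Other genes of the same pathways were described from lists drawn up for these regulators. Of 39 partners and co-regulators of the PGC-1 family, 38 were tested. In rho0 8 were higher and 6 lower than in TM6, or 36.8% called, with a median log2 fold change of 0.15. In PKO-1 there were 4 higher and 5 lower (23.7%, median 0.18), and in PKO-6 11 higher and 7 lower (47.4%, median 0.06). Over all tested genes the called shares of these comparisons were 42.1%, 34.3% and 41.3%, and the medians were 0.02, 0.00 and 0.01. *Ncoa1*, a steroid receptor coactivator with histone acetyltransferase activity, rose by 1.23 in rho0, 0.61 in clone PKO-1 and 1.06 in clone PKO-6 on the log2 scale (edgeR adjusted p at most 4.43e-08), and lies on chromosome 12, whose genes had medians of 0.55, 0.56 and 0.53. Relative to these it differed by 0.68, 0.05 and 0.53, so that the PKO-1 difference was under the fold threshold. *Myc*, a growth regulator that lies on chromosome 15, was called higher in rho0 at 0.97 and in PKO-6 at 0.77, and was at 0.46 in PKO-1, below the fold threshold. *Perm1*, which codes for a muscle regulator induced by PGC-1 and ERR, had 120.9 ± 45.3 normalized counts in TM6, 319.8 ± 82.2 in the rho0 line, 166.4 ± 21.0 in clone PKO-1 and 349.0 ± 73.5 in clone PKO-6 (SD over n = 3 libraries). It was called in rho0 at 1.40 and in PKO-6 at 1.53, but not in PKO-1 at 0.46 (edgeR adjusted p = 3.01e-04, 1.3e-04 and 0.154).

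The genes of the list named for lower counts were called in all 3 lines. *Tfeb*, which directs lysosome genes and *Ppargc1a*, had 739 ± 47.7 normalized counts in TM6, 123.5 ± 11.1 in the rho0 line, 262.8 ± 12.4 in clone PKO-1 and 221.5 ± 41.9 in clone PKO-6 (SD over n = 3 libraries). Its log2 fold changes were -2.58, -1.49 and -1.74, all called. *Kat2b*, which codes for an acetyltransferase, fell by 0.98, 0.77 and 1.30 in the same order. *Tfe3*, a relative of *Tfeb*, fell by 0.90, 0.98 and 1.00, and lies on the X chromosome, whose medians were -0.75, -0.74 and -0.87. Relative to these all 3 differences, at -0.14, -0.24 and -0.13, were under the fold threshold. The part of the chromosome in the *Tfe3* result was not tested.

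Of the genes for AMPK's regulatory subunits, its upstream kinases and the folliculin complex, all 16 were tested, with 3 lower in rho0 (18.8% called, median -0.16), 2 lower in PKO-1 (12.5%, median -0.12) and 3 lower in PKO-6 (18.8%, median -0.07), beside 42.1%, 34.3% and 41.3% called over all tested genes. *Flcn*, which encodes folliculin, a negative regulator of TFE3 and TFEB, was called lower in PKO-1 at -0.64 and in PKO-6 at -0.72, and was at -0.31 in rho0, below the fold threshold (edgeR adjusted p = 2.18e-06, 4.63e-07 and 0.0011). *Camkk1*, an upstream kinase, was called lower in rho0 at -0.85 and in PKO-6 at -0.54, and was at -0.10 in PKO-1 (edgeR adjusted p = 2.83e-06, 1.72e-04 and 0.395). Relative to the median of chromosome 11 its PKO-6 difference was -0.47, under the fold threshold.

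Of 18 genes for other sirtuins, NAD supply and modulators of SIRT1, 6 were higher and 1 lower in rho0 (38.9% called, median 0.32), 1 was called in PKO-1, as lower (5.56%, median -0.05), and 3 in PKO-6, all higher (16.7%, median 0.15). The shares over all tested genes were 42.1%, 34.3% and 41.3%. *Nmnat3*, which makes NAD in mitochondria, had 215.4 ± 1.86 normalized counts in TM6, 391.2 ± 33.7 in the rho0 line, 157.9 ± 12.0 in clone PKO-1 and 381.8 ± 30.7 in clone PKO-6 (SD over n = 3 libraries). It was called higher in rho0 at 0.86 and in PKO-6 at 0.82, and was at -0.45 in PKO-1, on chromosome 9, whose median in PKO-1 was -0.39.

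Of 19 classical NRF-1 and GABP targets, 18 were found and tested, while *Tomm70* was not found by that symbol. In rho0 2 were higher and 3 lower (27.8% called, median -0.24), in PKO-1 3 were called, all higher (16.7%, median 0.08), and in PKO-6 1 higher and 2 lower (16.7%, median -0.07), where 42.1%, 34.3% and 41.3% of all tested genes were called. *Tfb1m*, a mitochondrial rRNA methyltransferase, was called higher in all 3 lines, at 0.73 in rho0, 0.94 in clone PKO-1 and 0.55 in clone PKO-6 (edgeR adjusted p at most 5.28e-05). Relative to the median of chromosome 17 these were 0.48, 0.74 and 0.36, so that only the PKO-1 difference passed the fold threshold. *Sdhd*, a complex II subunit, was called lower in rho0 at -0.77 and in PKO-6 at -0.54, and was at -0.47 in PKO-1.

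Of 14 classical PGC-1 and ERRα targets, 12 were tested. In rho0 1 was higher and 6 lower (58.3% called, median -0.51), in PKO-1 1 higher and 3 lower (33.3%, median -0.42), and in PKO-6 2 higher and 6 lower (66.7%, median -0.51). Of all tested genes, 42.1%, 34.3% and 41.3% were called, so the PKO-1 share was near that of all genes. *Cpt1a*, which carries fatty acids into mitochondria, had 2895 ± 110 normalized counts in TM6, 649.2 ± 29.0 in the rho0 line, 1783 ± 20.8 in clone PKO-1 and 1080 ± 104 in clone PKO-6 (SD over n = 3 libraries), with log2 fold changes of -2.16, -0.70 and -1.42, all called. *Pdk4*, which slows pyruvate oxidation, fell by 2.42, 1.86 and 2.10, and *Acadm*, of β-oxidation, was called lower in rho0 at -1.25 and in PKO-6 at -0.61, and was at -0.09 in PKO-1. *Vegfa*, an angiogenic factor, was higher in every line, at 1.73, 0.86 and 1.76.

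By the likeness of their line means, the genes nearest in pattern were named for the 3 regulators that spanned more than 1 on the log2 scale, over 4 line means of log2 CPM. For *Prkaa2* (span 1.25) these were *Gm13212*, *Ddit4* and *Tmem159*, with root mean square differences of 0.021, 0.039 and 0.049. For *Ppargc1b* (span 1.87) they were *Wbscr27*, *Fam102a* and *Ano1*, at 0.060, 0.067 and 0.077. For *Ppargc1a* (span 3.46) the nearest were *Slc25a23* at 0.33, *Prkg1* at 0.43 and *Pbp2* at 0.43. The difference is not scaled to the span, and the *Ppargc1a* means in TM6 and rho0 rest on few counts. Its larger values are therefore not comparable with those of the other regulators. These matches rest on 4 points per gene and about 11204 genes compared, and how often such near matches arise by chance was not tested.

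Promoters were described by sequence for the regulators with a RefSeq window (build GRCm38.p6, 250 bases before to 50 after a start), 9 of 10 genes (all but *Ppargc1b*) with 11 windows. The *Ppargc1a* window lies at the start of its upstream transcript. Both strands were searched for CGCATGCG (the core of an NRF-1 site), CCGGAAG (an ETS site as GABP binds), CAAGGTCA (a site of ERR receptors) and TGACGTCA (a CRE). Among all 32851 windows of 300 bases, 1.87% held the first, 8.86% the second, 1.56% the third and 1.79% the fourth. *Gabpa* alone had a match among the 11 windows, 1 to the NRF-1 core and 1 to the ETS site on the reverse strand. A link between these matches and the *Gabpa* counts was not tested. The window is shown because it held the only matches, which are in capitals (chr16:84834874-84835173, plus strand):
*Gabpa*: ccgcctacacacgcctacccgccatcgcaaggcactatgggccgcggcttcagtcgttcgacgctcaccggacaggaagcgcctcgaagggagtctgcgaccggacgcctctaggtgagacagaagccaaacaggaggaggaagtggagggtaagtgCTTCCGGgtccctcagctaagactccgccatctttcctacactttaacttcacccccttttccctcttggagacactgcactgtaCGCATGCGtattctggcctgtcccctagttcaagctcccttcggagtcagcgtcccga
A match is a description of letters in this window, and a window without one says nothing about whether the factor acts on the gene.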

How the data were processed

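Per the labels, the libraries were strand-specific and depleted of rRNA, and technical duplicates were merged. The authors estimated transcript levels with RSEM 1.2.25 and Bowtie2 on mm10 (GRCm38) RefSeq transcripts, and the deposited gene table holds expected counts, 12.5% of them with decimals, which were rounded. The deposited per-library files also give TPM and the percent of a gene's transcripts that each transcript holds, both used here as deposited. Libraries held 47164860 to 67991378 counts, 12.2% to 19.6% of them on *Rn45s*, which sets how well low genes such as *Ppargc1a* can be measured. RNA encoded by mtDNA was not analysed here.

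Tests used R 4.3.3 and edgeR 4.0.16: genes with low counts were removed by filterByExpr (minimum count 10), followed by TMM scaling and the quasi-likelihood test in a fit of 4 lines (8 residual degrees of freedom, biological coefficient of variation 0.0837), with the clones pooled in a fit of 3 groups (0.248). The Benjamini-Hochberg adjustment ran over all 14026 tested genes. The standard error is the size of the log2 fold change over the square root of F. edgeR's robust estimate of the spread was fitted first. It was replaced by the default after its results were seen, because the design named no robust option and the count of genes called between the clones differed slightly from an earlier result on these data (4077 with the robust estimate, 4087 with the default). The robust fit was kept as an added alternative. The other alternatives were DESeq2 1.42.0 (size factors, Wald test), no filter, a replicate block, only the compared lines, other thresholds, chromosome medians subtracted, *Rn45s* left out, and each library left out. Chromosome medians were subtracted from fold changes only, without a new test. No replicate pair was identical.

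The regulators and gene lists were chosen with earlier results of these data known. All 10 regulators are named, and from each list up to 3 higher and 3 lower genes with the largest mean change, called against TM6 in at least 2 of 3 lines, with at least 100 normalized counts. Genes of like pattern had the smallest root mean square difference between centred line means, with the same minimum. *Atp5j* and *Trmt112* were added after their values were seen, as overlapping genes.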

Additional observations from a re-analysis of the deposited data

Results flagged for a closer look

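In 5 regulators the change against TM6 differed between the PKO clones in the direct edgeR test of PKO-1 against PKO-6. The log2 difference was -1.77 for *Ppargc1a*, -0.96 for *Ppargc1b*, -0.67 for *Esrra* and -0.91 for *Prkaa2*, all lower in PKO-1, and 0.66 for *Gabpa*, higher in PKO-1. These are 5 of 10 regulators, and 29.1% of all tested genes also differed between the clones. With 1 culture series per clone, a difference between clones and one between their cultures cannot be told apart.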

How the results depend on the processing

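Over 80 comparisons of a regulator and 1219 values under alternatives (refits, other thresholds and subtractions), 1146 stayed on their side of the thresholds, 22 of them with the sign changed in a value not called. Another 40 lost a call, 33 gained one, and 0 reversed a called direction. The default estimate of the spread, used for every reported test, was chosen after the results of the robust one had been seen. The robust estimate, listed as an alternative after seeing the data, changed 0 of the 80 calls and called 5879 genes in rho0 against TM6 in place of 5902.

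An absolute log2 fold change above 1 called 2944, 2274 and 3038 genes in rho0, PKO-1 and PKO-6 against TM6, 1950 between the clones, and 2202 and 1510 in PKO-1 and PKO-6 against rho0. Of the regulators it called 0 for rho0 (edgeR, 0 also at an unadjusted p below 0.05 and 0 by DESeq2), 1 in PKO-1, 3 in PKO-6, 1 between the clones, and 1 and 2 against rho0. An adjusted p below 0.05 alone called 10088, 9038, 9829, 8611, 9252 and 7646 genes in the same order, and 6, 6, 7, 8, 6 and 9 regulators. Subtracting chromosome medians left 2 regulators called between PKO-1 and rho0, and 1 each in the comparisons of PKO-1 and of rho0 with TM6, beside 4 for PKO-6 against TM6 and 4 between the clones. It also gained a call, of *Sirt1* in PKO-6 against rho0, at -0.51. Subtraction shifted the fold changes only, and the adjusted p stayed that of the unsubtracted difference.

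With each library left out, the regulators called against TM6 numbered 2 to 4 for rho0 and 4 to 5 for PKO-6, and for PKO-1 they numbered 1 to 3, with 1 called without TM6 replicate 1. Over all genes the same fits called 5604 to 6299, 5657 to 5956 and 4597 to 4759 in this order. With the clones pooled, 4 were called against TM6 when the mean of both clones was taken in the fit of 4 lines. Leaving out a library gave 0 to 3 against TM6 and 1 to 2 against rho0. The 0 arose without TM6 replicate 2 (edgeR, 4 at an unadjusted p below 0.05), where *Ppargc1a* had 2.88 and *Ppargc1b* 1.34.

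Replicate numbers are shared by the lines, but of 18 same-numbered pairs 10 correlated above 0.1 (range -0.39 to 0.25), and 1 of 12 libraries correlated best with its own number in every other line. Between TM6 and PKO-6 all 3 same-numbered pairs were positive (0.25, 0.25 and 0.21) and the other 6 pairs negative (-0.23 to -0.01), while the other pairs of lines showed no such pattern. The correlated values are deviations from line means, which cancel within a line. Positive same-numbered pairs therefore make the other pairs negative on balance, and those add no separate evidence. The numbers were not treated as pairs in the reported tests. A replicate block gave 3, 3 and 4 regulators in rho0, PKO-1 and PKO-6 against TM6, 5 between the clones, and 4 and 4 against rho0. With clones pooled the block gave 1 against TM6 and 1 against rho0, and *Ppargc1a* lost its call in both, at 2.45 and 3.12. It called 5849, 4761, 5776, 4027, 4524 and 2952 genes. The causes of these changes were not tested. Depth limits *Ppargc1a* most, at 6 to 20 counts per library in TM6 and rho0.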
